A study of Homo sapiens with 9 samples.

Results

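The promoters described here are those whose coding strand carries little or no excess of G over C in the first 500 bp of the transcript. RNA polymerase II was mapped in HEK293T, a line derived from human embryonic kidney, by chromatin immunoprecipitation (ChIP) of POLR2A, its largest subunit, and sequencing. The 3 conditions were a control shRNA (shCtrl, genotype wildtype), U2AF1 knockdown and DHX9 knockdown, each with 2 ChIP samples and 1 input sample, and 1 list of polymerase peaks was analysed per condition. A peak was included when its summit lay within 1000 bp of protein-coding transcript starts of a single strand and when the skew, (G-C)/(G+C) on the coding strand from the nearest start to +500 bp, was below 0.05. This gave 816 of 2757 control peaks, 440 of 1730 U2AF1 knockdown peaks and 1398 of 4443 DHX9 knockdown peaks, in all 2654 of 8930. They lay at 1823 distinct starts of 1669 genes, and are called low-skew promoters below. The remaining single-strand promoters, with a skew of 0.05 or more, are called G-rich and numbered 997, 522 and 1733 peaks.

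A nascent transcript can pair again with its template behind the polymerase and leave the coding strand unpaired, a structure called an R-loop. A G-rich RNA makes a stable hybrid with the C-rich template strand, and many human CpG island promoters switch to G-rich coding sequence at the start, where R-loops are often found. DHX9 is a helicase that unwinds RNA and DNA structures, R-loops among them. U2AF1 is the small subunit of the factor that recognises the 3′ splice site, and the series asks about its link to R-loops at promoters. Low-skew promoters are the ones where the sequence favours such hybrids less on the coding side.

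Each condition has 1 list, so no value below carries a replicate error and no comparison between conditions was tested. Intervals are 95% Wilson intervals for a share and 95% Newcombe intervals for a difference of shares. They cover the counting of peaks only. The shRNA sequences and the vector are not given in the sources used here, nor is the extent of either knockdown. Of 8 genes set down as marks of HEK293T cells, VIM had a peak at a start in all 3 lists, and 6, PAX2 among them, had none in any list. None of 6 marks of other cell types had a peak at a start. The lists name only places with strong signal, so a gene without a peak may still be transcribed.

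The sequence that defines the group can be read directly in low-skew genes with peaks in all 3 lists. The stretches below run 5′ to 3′ on the coding strand of GRCh38, lie within the first 500 bp and overlap no annotated exon. Capitals mark runs of 3 or more C or G. The first 3 genes are low-skew: ECHS1, a mitochondrial enzyme of fatty acid oxidation (chr10:133373096-133373245, minus strand), RAB11A, a GTPase of recycling endosomes (chr15:65869626-65869775, plus strand), and TGOLN2, a protein of the trans-Golgi network (chr2:85327767-85327916, minus strand). MYLIP, a ubiquitin ligase that acts on the LDL receptor (chr6:16129410-16129559, plus strand), is the G-rich promoter shown for contrast.
ECHS1: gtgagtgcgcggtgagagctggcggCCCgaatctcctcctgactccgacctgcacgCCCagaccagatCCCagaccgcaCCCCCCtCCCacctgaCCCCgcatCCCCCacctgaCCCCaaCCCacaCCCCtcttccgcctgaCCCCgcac
RAB11A: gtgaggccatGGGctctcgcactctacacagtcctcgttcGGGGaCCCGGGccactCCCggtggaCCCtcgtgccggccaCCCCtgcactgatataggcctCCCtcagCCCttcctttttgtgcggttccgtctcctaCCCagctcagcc
TGOLN2: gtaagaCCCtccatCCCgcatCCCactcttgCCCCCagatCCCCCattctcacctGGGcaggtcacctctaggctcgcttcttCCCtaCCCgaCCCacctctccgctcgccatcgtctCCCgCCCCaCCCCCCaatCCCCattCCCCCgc
MYLIP: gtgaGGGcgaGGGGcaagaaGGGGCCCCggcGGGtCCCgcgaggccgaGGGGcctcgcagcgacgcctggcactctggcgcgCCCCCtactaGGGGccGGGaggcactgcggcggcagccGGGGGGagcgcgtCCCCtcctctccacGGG

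In the ECHS1 stretch 76 of 150 bases were C and 29 were G. RAB11A had 61 C and 37 G, and TGOLN2 80 C and 19 G. MYLIP had 53 C and 66 G. Over the full 500 bp the skew was -0.454 at ECHS1, -0.268 at RAB11A, -0.237 at TGOLN2 and 0.0981 at MYLIP.

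Low-skew promoters ranged from strongly C-rich to nearly G-rich. The skew of their peaks ran from -0.652 to 0.0499 with a median of -0.0260. Of the 2654 peaks, 116 had a skew below -0.2, 408 lay between -0.2 and -0.1, 434 between -0.1 and -0.05, 718 between -0.05 and 0, and 978 between 0 and 0.05. The group is therefore mostly balanced in G and C, and 958 peaks, those below -0.05, are called C-rich below. The threshold cuts through a continuous range: the starts just inside it were those of TMPO and PDCL3, both at 0.0499, and KLF5 at 0.0497, and those just outside were MLYCD and UCK1, both at 0.0501, and BCLAF1 at 0.0502. The genes targeted by the knockdowns were not members. DHX9 had a skew of 0.0712 and peaks in all 3 lists. U2AF1 had a skew of 0.178 and peaks in both knockdown lists. A polymerase peak at either gene does not measure how far the shRNA lowered its RNA.

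The share of low-skew promoters among single-strand promoter peaks was nearly the same in the 3 lists. It was 45.0% under the control shRNA (42.7 to 47.3, 816 of 1813), 45.7% after U2AF1 knockdown (42.6 to 48.9, 440 of 962) and 44.7% after DHX9 knockdown (42.9 to 46.4, 1398 of 3131). The whole annotation gave 48.9% over 19567 canonical protein-coding starts, 1 a gene, and 45.4% over all 78286 protein-coding starts. These are shares of starts and not of peaks. They include starts of genes without a peak and starts near a coding start of the other strand. The canonical starts named below are this same unfiltered set. The DHX9 knockdown list was the longest and the U2AF1 knockdown list the shortest, and the shares differed by less than the width of these intervals.

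**Figure D1:**
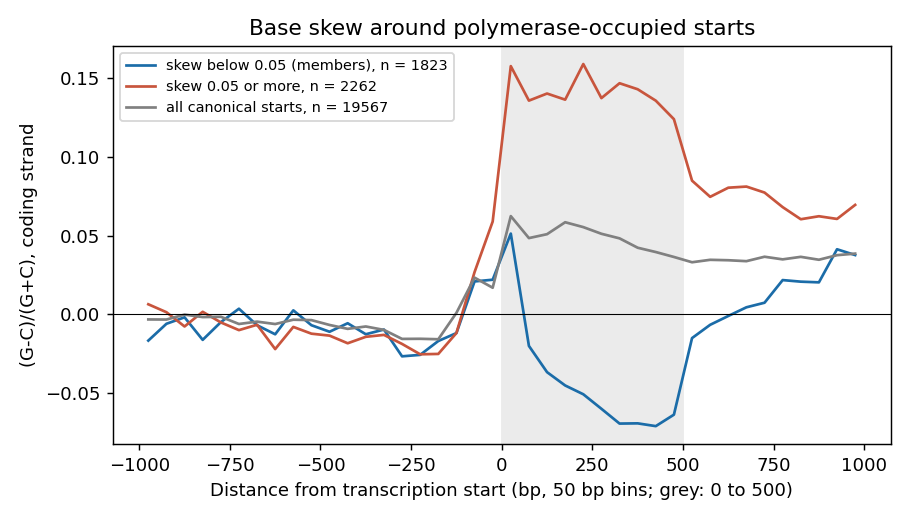
Mean base skew on the coding strand (y axis) in bins of 50 bp by distance from the transcription start (x axis, bp), for 1823 low-skew starts, 2262 G-rich starts and 19567 canonical starts; the grey band is the window that defined the classes. In the last 50 bp before the start the G-rich line, at 0.0590, is above the low-skew line, at 0.0220. The low-skew line is above 0 in the first bin after the start before it falls below 0.

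Outside the window used to choose them, low-skew promoters had a median upstream sequence bias close to that of G-rich ones. From -500 bp to the start the median skew was -0.00654 at low-skew and -0.00539 at G-rich starts. It was above 0 at 47.3% and 47.5% of starts, a difference of -0.195 points (-3.27 to 2.88). In the last 50 bp before the start the classes differed, with a pooled skew of 0.0220 at low-skew and 0.0590 at G-rich starts, against 0.0169 at canonical starts. The first 50 bp of the transcript leaned to G in both classes, with a pooled skew of 0.0513 at low-skew and 0.158 at G-rich starts. At low-skew starts the sign then changed, to -0.0201 between 50 and 100 bp and -0.0711 between 400 and 450 bp. Beyond the window it returned to 0.0377 between 950 and 1000 bp, against 0.0696 at G-rich starts.

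Low-skew promoters had the base content of CpG islands, close to that of G-rich ones. The median G+C content from the start to +500 bp was 70.8% at low-skew and 70.2% at G-rich starts, against 64.0% over the canonical starts. The ratio of observed to expected CpG, which is low where methylated CpG has decayed over evolution, had a median of 0.850 and 0.853, against 0.721. Low-skew starts thus held as many bases of G and C together, divided differently: 33.8% G and 36.4% C at the median low-skew start, and 39.6% G and 30.1% C at the median G-rich start.

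Runs of G can fold into a G-quadruplex, a structure of stacked G bases. Over all low-skew starts they were found more often on the template than on the coding strand, but not among the balanced members. A quadruplex motif was counted where 4 runs of at least 3 G were separated by 1 to 7 bases. From the start to +500 bp it was found on the coding strand of 27.8% of low-skew and 52.5% of G-rich starts. On the template strand it was found at 39.8% and 12.6%. Among the C-rich members the template strand had it at 53.9% and the coding strand at 15.8%. Among the balanced members, with a skew from -0.05 to 0.05, the template strand had it at 31.7% and the coding strand at 34.6%. These counts share the G and C bases with the skew and are given as a description of the group. The canonical starts had the motif on 29.9% of coding and 20.1% of template strands.

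Short motifs of promoter-binding factors were about as common in both classes. Between -250 and +50 bp, on either strand, GGGCGG, the core of SP1 family sites, was present at 83.4% of low-skew and 82.9% of G-rich starts, and at 61.6% of canonical starts. CCAAT, the NF-Y box, was at 33.0% and 31.9%, against 36.1% of canonical starts. CCGGAAG, a core of ETS sites, was at 19.2% and 21.2%, against 14.04%. TGACGT, the core of cyclic AMP response elements, was at 12.8% and 13.0%, against 9.55%. AAGATGG, a core of YY1 sites, was at 6.97% and 8.09%, against 6.44%, and CACGTG, an E-box, at 9.22% and 11.0%, against 8.75%. For GCATGCG, a core of NRF1 sites, the shares were 7.08% and 9.28%, a difference of -2.21 points (-3.88 to -0.509), against 5.07% of canonical starts. A match is a run of letters and was not tested for binding.

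A TATA box was rare. TATAAA between -40 and -20 bp on the coding strand was found at 2.52% of low-skew and 1.28% of G-rich starts, a difference of 1.24 points (0.406 to 2.15), and at 3.89% of canonical starts. By list it was at 4.18% of low-skew starts under the control shRNA (3.01 to 5.79), 5.71% after U2AF1 knockdown (3.90 to 8.29) and 2.80% after DHX9 knockdown (2.06 to 3.81), so the share over all low-skew starts lies below that of each list. Among the low-skew promoters described below it occurred at H3C15, H3C14, H3C1, H2BC5, ATF3, BTG1 and DUSP1, a phosphatase induced early after growth signals. For the 4 of these with no annotated exon there, the 60 bases before the start are printed with TATAAA in capitals, 5′ to 3′ on the coding strand: H3C15 at chr1:149852548-149852607 (plus), H3C14 at chr1:149841209-149841268 (minus), H3C1 at chr6:26020391-26020450 (plus) and DUSP1 at chr5:172771196-172771255 (minus), all in GRCh38.
H3C15: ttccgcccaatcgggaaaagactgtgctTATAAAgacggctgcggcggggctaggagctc
H3C14: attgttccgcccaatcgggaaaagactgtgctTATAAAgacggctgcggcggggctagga
H3C1: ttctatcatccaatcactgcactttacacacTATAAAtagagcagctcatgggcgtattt
DUSP1: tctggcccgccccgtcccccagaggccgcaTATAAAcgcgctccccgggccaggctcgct

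The H3C14 and H3C15 stretches share a run of 56 of their 60 bases. These neighbouring genes are near-identical copies, so the assignment of reads to either is uncertain.

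Gene structure differed more between the classes than upstream sequence did. The first exon of the transcript at the nearest start had a median length of 222 bp (quartiles 124 and 412) at low-skew starts, 171 bp (96 and 287) at G-rich starts and 186 bp at canonical starts. First exons shorter than the 500 bp window made up 82.3% and 90.5% of the low-skew and G-rich starts, a difference of -8.20 points (-10.3 to -6.09). Single-exon transcripts made up 3.68% and 1.64%, a difference of 2.04 points (1.06 to 3.10). Transcript starts on the opposite strand were counted for genes of any type other than protein-coding, pseudogenes included. Such a start lay within 1000 bp at 34.6% of low-skew and 28.2% of G-rich starts, a difference of 6.31 points (3.45 to 9.17). The share was 15.8% at canonical starts. Median gene length was 39882 bp at low-skew and 38490 bp at G-rich starts, against 27332 bp at canonical starts.

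The comparison of the lists asks whether polymerase remained detectable at these promoters when U2AF1 or DHX9 was reduced. Overlap means that 1 bp or more of a peak is covered by any peak of the second list. Of the 816 low-skew peaks of the control list, 284 (34.8%, 31.6 to 38.1) were overlapped after U2AF1 knockdown and 603 (73.9%, 70.8 to 76.8) after DHX9 knockdown. Without overlap in the U2AF1 knockdown list were 532 (65.2%), and over all control peaks this share was 65.4%. Without overlap in the DHX9 knockdown list were 213 (26.1%), against 33.2% of all control peaks. The share absent from the U2AF1 knockdown list was thus at the level of the whole list, and the share absent from the DHX9 knockdown list was below it for low-skew and G-rich promoters alike, with 25.1% at the latter.

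Seen from the knockdown lists, the low-skew share without overlap was below that of the whole list for U2AF1 knockdown peaks. For DHX9 knockdown peaks it was near that of the whole list. Of the 440 low-skew peaks of the U2AF1 knockdown list, 158 had no overlap in the control list (35.9%, against 44.9% of all its peaks) and 95 none in the DHX9 knockdown list (21.6%, against 30.9%). Of the 1398 low-skew peaks of the DHX9 knockdown list, 795 had no overlap in the control list (56.9%, against 58.7%) and 1055 none in the U2AF1 knockdown list (75.5%, against 73.2%). G-rich promoters had 35.1%, 20.7%, 57.1% and 76.1% without overlap in the same order, close to the low-skew shares. The lists differ in length, and a short list offers fewer peaks to overlap.

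**Figure D2:**
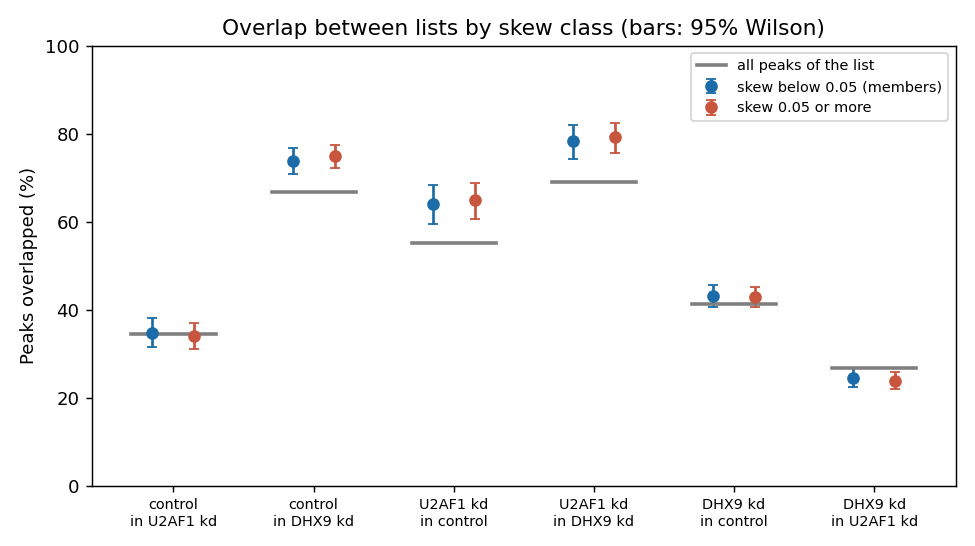
Percent of peaks overlapped (y axis) for each ordered pair of lists (x axis), for low-skew promoters, G-rich promoters and all peaks of the list. Dots are the shares of the classes, with 95% Wilson intervals for counting error only, and short grey lines are all peaks. In each of the 6 comparisons the low-skew and G-rich shares differ by 1.03 points or less.

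Low-skew and G-rich promoters were overlapped at nearly equal rates in all 6 ordered comparisons. The difference, low-skew minus G-rich, was 0.802 points (-3.58 to 5.20) for control peaks in the U2AF1 knockdown list and -1.03 points (-5.08 to 2.99) for control peaks in the DHX9 knockdown list. For U2AF1 knockdown peaks it was -0.852 points (-6.92 to 5.18) in the control list and -0.901 points (-6.12 to 4.24) in the DHX9 knockdown list. For DHX9 knockdown peaks it was 0.259 points (-3.22 to 3.75) in the control list and 0.646 points (-2.36 to 3.68) in the U2AF1 knockdown list. Each interval includes 0, and differences of several points in either direction remain within them.

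A stricter cut gave the same picture. The C-rich members, with a skew below -0.05, were set against the G-rich promoters. Their overlap differed by 1.89 points (-4.23 to 8.27) for control peaks in the U2AF1 knockdown list and by -2.10 points (-8.11 to 3.46) in the DHX9 knockdown list. The other 4 comparisons gave -2.52 points (-11.3 to 5.80), -2.24 points (-10.1 to 4.70), -2.21 points (-6.99 to 2.67) and -0.543 points (-4.56 to 3.77), in the order above. This subset was defined after the data had been seen.

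**Figure D3:**
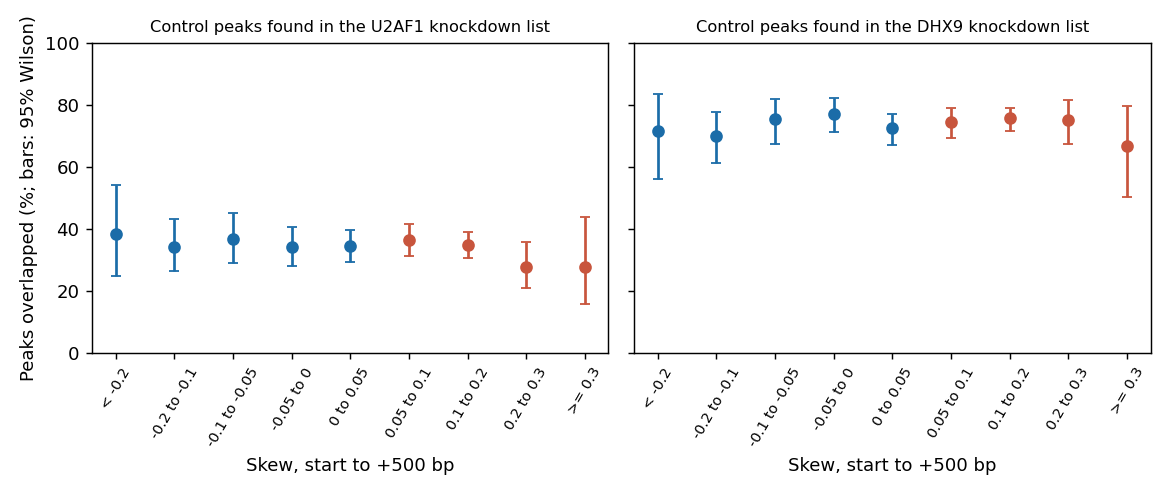
Percent of control peaks overlapped (y axis) after U2AF1 knockdown and after DHX9 knockdown, by the skew of the promoter from the start to +500 bp (x axis, 9 ranges); points are shares and lines are 95% Wilson intervals. Low-skew promoters lie left of 0.05. The U2AF1 points run from 38.5% at the lowest skew to 27.8% at the highest with overlapping intervals, and the DHX9 points lie between 66.7% and 77.3%.

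Within the low-skew group the overlap of control peaks changed little across skew. Control peaks with a skew below -0.2 were overlapped after U2AF1 knockdown in 15 of 39 cases (38.5%, 24.9 to 54.1), and those between 0 and 0.05 in 106 of 309 (34.3%, 29.2 to 39.8). The 3 ranges between gave 34.2%, 36.6% and 34.1%. For the DHX9 knockdown list the 5 low-skew ranges gave 71.8%, 70.1%, 75.6%, 77.3% and 72.5% from the lowest skew up. The lowest shares in the U2AF1 knockdown list were at the most G-rich promoters, 27.7% (20.9 to 35.8) between 0.2 and 0.3 and 27.8% (10 of 36, 15.8 to 43.99) from 0.3 up, with intervals that overlap those of the low-skew ranges. Low-skew U2AF1 knockdown peaks varied more in their overlap with the control list, from 14 of 16 below -0.2 (87.5%, 64.0 to 96.5) to 38 of 68 between -0.2 and -0.1 (55.9%, 44.1 to 67.1), and 63.0%, 68.3% and 62.6% in the next 3 ranges.

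Peak strength went with overlap far more than skew did. The fold enrichment of a peak is the authors' own ratio of signal over background, and peaks were grouped by it within a list. Further below, folds of named genes are given for each list and are ranked across paired peaks. No difference in fold between lists was tested. The control promoter peaks of both classes were divided into 4 groups of equal size by it. Of the low-skew peaks in the weakest group, 20.2% (41 of 203, 15.3 to 26.2) were overlapped in the U2AF1 knockdown list, and of those in the strongest, 60.3% (126 of 209, 53.5 to 66.7). The G-rich values were 24.3% and 57.0%. In the DHX9 knockdown list the low-skew shares were 68.5% in the weakest and 87.6% (183 of 209, 82.4 to 91.4) in the strongest group, and the G-rich shares 68.1% and 86.4%.

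The 2 comparisons share the control list, and their values are given side by side. Of the 816 low-skew control peaks, 256 (31.4%, 28.3 to 34.6) were overlapped under both knockdowns, 347 (42.5%) in the DHX9 knockdown list alone, 28 (3.43%) in the U2AF1 knockdown list alone and 185 (22.7%, 19.9 to 25.7) in neither. The G-rich shares were 31.0%, 43.9%, 3.01% and 22.1%. Low-skew control peaks found in both knockdown lists had a median fold enrichment of 5.00, and those found in neither 4.08. Counted by gene, 240 of the 1669 genes had a low-skew peak in all 3 lists, 344 in the control and DHX9 knockdown lists, 696 in the DHX9 knockdown list alone, 193 in the control list alone and 68 in the U2AF1 knockdown list alone. The longest list thus held the largest share of genes found once.

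The strength of low-skew peaks was close to that of G-rich peaks in each list. Median fold enrichment was 4.38 (quartiles 3.65 and 5.27) against 4.27 under the control shRNA, 5.16 (4.34 and 6.17) against 4.99 after U2AF1 knockdown and 5.49 (4.71 and 6.60) against 5.44 after DHX9 knockdown. All peaks of the lists had medians of 4.13, 4.75 and 5.27. The deposited -log10 p gave low-skew and G-rich medians of 11.8 and 11.6, 10.1 and 9.93, and 10.3 and 10.3 in the same order. Low-skew peaks had a median width of 320.5 bp under the control shRNA, 280 bp after U2AF1 knockdown and 321 bp after DHX9 knockdown.

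**Figure D4:**
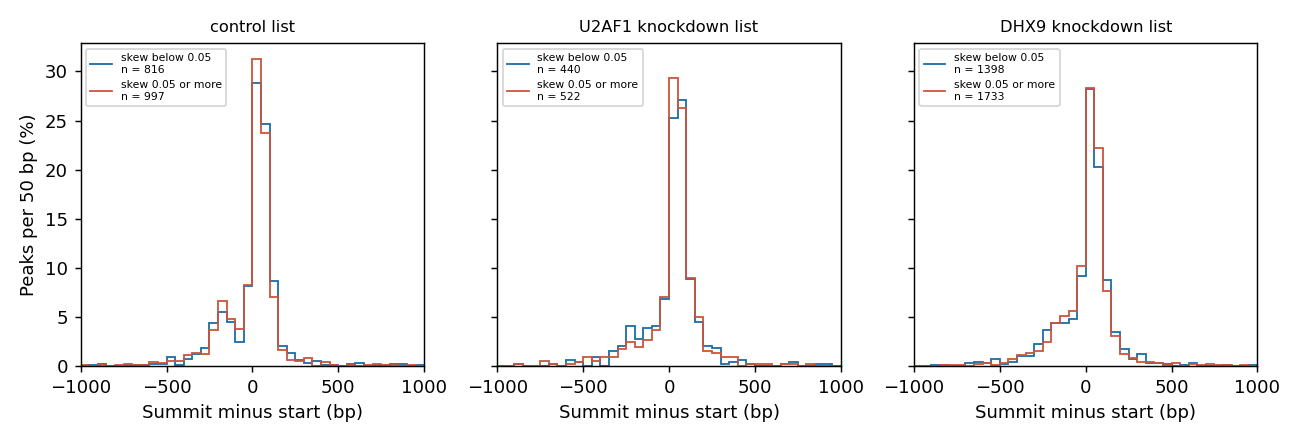
Percent of peaks (y axis) by distance of the summit from the nearest start (x axis, bp, positive downstream), for low-skew and G-rich promoters in each of the 3 lists. In every list and class the highest bins lie just downstream of the start.

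Polymerase summits at low-skew promoters lay most often just downstream of the start, the region in which polymerase is known to pause. The summit, the position of highest signal in a peak, had a median distance of 38 bp from the nearest start under the control shRNA, 46 bp after U2AF1 knockdown and 31 bp after DHX9 knockdown, against 33, 43.5 and 32 bp at G-rich promoters. The distance depends on the starts used: it was 25, 33 and 18 bp with the starts of all transcripts of protein-coding genes and 52, 63 and 50.0 bp with canonical starts. Summits between 0 and 100 bp downstream made up 53.9% (50.5 to 57.3), 52.5% and 48.9% of low-skew peaks and 55.3%, 55.7% and 50.7% of G-rich peaks. Upstream of the start lay 31.3%, 27.7% and 33.7% of low-skew summits.

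Within the low-skew group, summits of C-rich promoters lay upstream more often in the control list. The share was 38.3% for C-rich and 27.4% for balanced members, a difference of 10.9 points (4.196 to 17.7). It was 3.43 points (-5.12 to 12.4) in the U2AF1 knockdown list and 3.64 points (-1.48 to 8.83) in the DHX9 knockdown list, so both of those intervals include 0. G-rich promoters had 33.2%, 24.5% and 34.2%, between the C-rich and balanced values in the control and DHX9 knockdown lists and below both in the U2AF1 knockdown list. The intervals of the 3 differences overlap, and whether the lists differ in this was not tested.

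Where a low-skew control peak overlapped a knockdown peak, the summits showed little shift in a common direction. Peaks with a single partner were paired and their summits compared on the coding strand. Pairs were chosen by overlap, which limits how far apart their summits can lie. In 283 low-skew pairs of control and U2AF1 knockdown peaks the summit lay a median of 4 bp further downstream in the knockdown (quartiles -22 and 35), and 64.0% of summits were within 50 bp of each other. In 591 pairs of control and DHX9 knockdown peaks the median was -1 bp (quartiles -41 and 36.5) and 57.0% were within 50 bp. G-rich pairs had medians of 7 bp and 1 bp. Fold enrichment ranked pairs alike only in part, with a Spearman's rho across low-skew pairs of 0.486 for control and U2AF1 knockdown and 0.382 for control and DHX9 knockdown, against 0.484 and 0.403 across G-rich pairs. Pairs are not independent replicates.

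The highest low-skew peak of each list was at PGK1, a glycolytic kinase. It reached a fold of 42.3 under the control shRNA, 111.9 after U2AF1 knockdown and 111.8 after DHX9 knockdown. The peak spanned chrX:78103797-78104351 in the control list and chrX:78103795-78104352 in both knockdown lists, with its summit upstream of the start in each, at -162 bp in the first and -139 bp in the last. It ranked 4, 2 and 1 among all peaks of the lists. The next highest low-skew peak had a fold of 16.3, 15.4 and 19.3, so PGK1 stands far from the other members. Its deposited -log10 q was 1995.8 for the control peak, 2571.2 for the U2AF1 knockdown peak and 2249.0 for the DHX9 knockdown peak. ID2 and MKNK2, next by fold among low-skew control peaks, had values of 88.0 and 94.3. Most of the PGK1 peak lay upstream of the start, at chrX:78104248. Whether its reads came from the gene itself was not tested, and the vector is not known here. Neither polymerase at the gene nor a change between conditions is read from these folds.

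Below PGK1, the strongest low-skew promoters included kinase, transport and transcription genes. MKNK2, a kinase that phosphorylates the cap-binding protein eIF4E, had folds of 16.3, 15.4 and 19.3 under the control shRNA, U2AF1 knockdown and DHX9 knockdown. ID2, an inhibitor of helix-loop-helix factors, had 16.3, 9.23 and 11.7, and TOB1, an antiproliferative adaptor of RNA deadenylation, had 13.8, 10.9 and 12.2. SLC1A5, a glutamine transporter with a skew of -0.217, had 13.6, 6.93 and 10.3. JUND, a subunit of the AP-1 factor, had 11.6, 11.7 and 12.8 at its strongest peak. POM121C, a nuclear pore protein with near-identical copies elsewhere in the genome, had 5.40, 11.4 and 9.22. All 6 had low-skew peaks in the 3 lists.

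The histone H3 genes with the TATA boxes printed above were among the strongest of the DHX9 knockdown list. H3C15 had folds of 5.80, 8.51 and 18.7 under the control shRNA, U2AF1 knockdown and DHX9 knockdown, and H3C14 had 6.96, 6.58 and 17.6. H3C1 had 8.49, 5.11 and 12.4. The ranks of H3C15, H3C14 and H3C1 were 423, 218 and 148 of 2757 in the control list. They were 125, 267 and 688 of 1730 in the U2AF1 knockdown list and 62, 67 and 106 of 4443 in the DHX9 knockdown list. Folds in different lists rest on different backgrounds and the lists differ in length. No change between conditions is therefore read from these folds or ranks.

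The most C-rich promoters with peaks in all 3 lists varied in fold. Among 2757 control peaks, PABPC1 ranked 140 and QSER1 2069. ECHS1, whose C-rich intron is printed above, had 4.98, 6.82 and 8.73, with summits at -79, -216 and -33 bp from the start. RAB11A had 5.83, 4.09 and 5.06, with summits at -209, -192 and -200 bp. PABPC1, the poly(A)-binding protein, had a skew of -0.272 in the control list and folds of 8.67, 4.08 and 9.87. QSER1, which protects DNA from methylation at some promoters, had a skew of -0.266 and folds of 3.37, 5.57 and 7.72. TGOLN2, also printed above, had folds of 4.52, 4.08 and 3.36, and in the U2AF1 knockdown list the nearest start was another one of the gene, with a skew of -0.0765. The lowest skew of all, -0.652, was at SMARCD3, a subunit of the BAF remodelling complex, with a control peak of fold 3.72 that neither knockdown list overlapped.

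The strongest low-skew control peaks absent from the U2AF1 knockdown list were all overlapped in the DHX9 knockdown list. Overlap there was common among strong peaks. In the strongest group of control promoter peaks, 87.6% of low-skew and 86.4% of G-rich ones had it. These shares also count peaks found in the U2AF1 knockdown list. Among low-skew control peaks of any strength absent from that list, 347 had an overlap in the DHX9 knockdown list and 185 had none. TTI2, a subunit of the TTT complex that helps PIKK kinases fold, had a control fold of 10.8 and 16.8 in the DHX9 knockdown list, with summits at -540 and -526 bp, where negative positions are upstream of the start. A small nucleolar RNA gene, SNORD13, starts on the opposite strand beside these summits. BTG1, an antiproliferative factor, had 8.83 in the control list, and NFKBIZ, a nuclear regulator of NF-kB targets, had 8.28. PAQR3, a Golgi protein, had 8.11, and POU2F3, the tuft cell POU factor, had 7.82. These ranked 87, 135, 155, 163 and 173 of 2757 control peaks.

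The strongest low-skew U2AF1 knockdown peaks absent from the control list were also all overlapped in the DHX9 knockdown list. In the strongest of 4 groups of U2AF1 knockdown promoter peaks by fold, 94.1% of low-skew and 95.1% of G-rich ones were. These shares also count peaks found in the control list, and the share among those absent from it is not given here. The peaks absent from the control list were at RBM15B, a subunit of the RNA m6A writer, with a fold of 7.84, B4GALT5, a galactosyltransferase, with 7.096, NUDT4, a diphosphoinositol phosphatase, with 7.02, ICMT, which methylates prenylated proteins, with 6.88, and PBX3, a homeobox factor, with 6.87. Their ranks ran from 155 to 234 of 1730.

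Against the DHX9 knockdown list, the strongest low-skew control peaks without overlap were at SOCS1, a feedback inhibitor of cytokine signalling, with a fold of 9.49, GPR89A, a Golgi anion channel with near-identical copies, with 7.47, RPL28, a ribosomal protein, with 6.57, ASF1B, a histone chaperone with a skew of -0.281, with 6.48, and ATP1B3, a subunit of the sodium pump, with 6.36. SOCS1 and ASF1B were overlapped in the U2AF1 knockdown list, with folds of 7.60 and 4.18 there. In the other direction, the strongest DHX9 knockdown peaks absent from the control list were at TMEM250 with 9.87, CEP78, a centrosome protein, with 9.71, APRT, which salvages adenine, with 9.46, ZNF354A, a zinc finger protein, with 8.90, and ZFP36L2, which binds AU-rich RNA, with 8.78. TMEM250, APRT and ZFP36L2 had overlaps in the U2AF1 knockdown list as well. Their ranks ran from 214 to 306 of 4443.

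**Figure D5:**
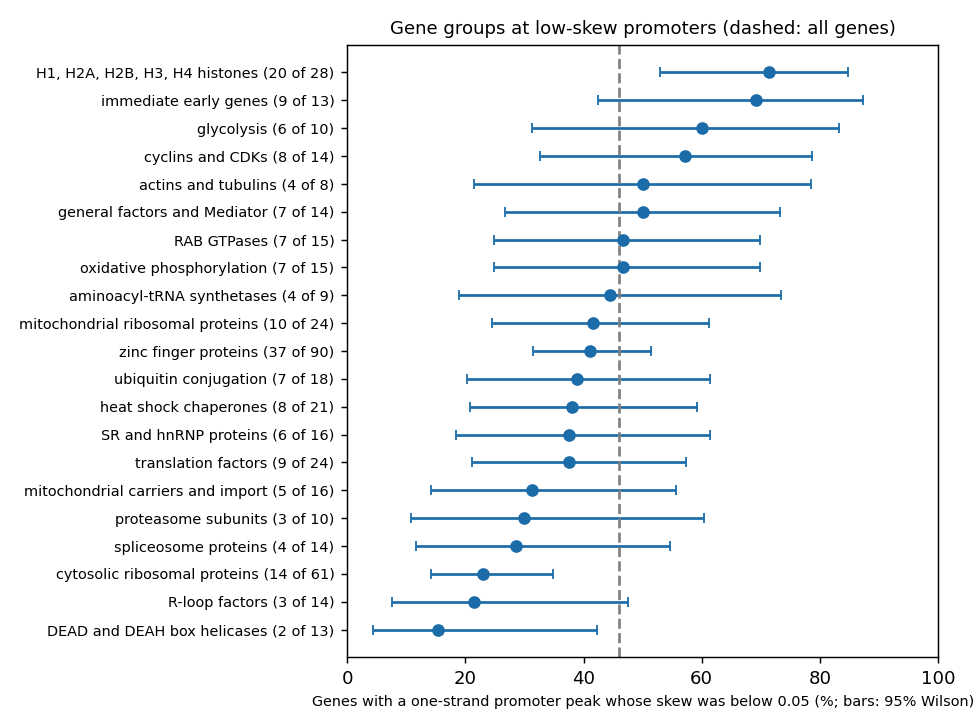
Percent of genes with a single-strand promoter peak whose promoter is low-skew (x axis) by gene list (y axis), with 95% Wilson intervals. RNA polymerase II subunits and HOX genes, the lists with the fewest such genes, are not drawn. The vertical line is the share over all genes, 46.1%. Histones lie highest at 71.4%, and cytosolic ribosomal proteins at 22.95%, R-loop factors at 21.4% and DEAD and DEAH box helicases at 15.4% lie lowest.

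Gene families were not equally represented. Of 3622 genes with a single-strand promoter peak in any list, 1669 (46.1%, 44.5 to 47.7) had a low-skew one. Among the histone genes of the H1, H2A, H2B, H3 and H4 families, 20 of 28 did (71.4%, 52.9 to 84.7), 9 of these in all 3 lists, where over all low-skew genes 240 of 1669 did so. The pattern that chose them also takes linker histones made outside S phase, such as H1-10. H1-2 had folds of 10.2, 9.54 and 10.6 under the control shRNA, U2AF1 knockdown and DHX9 knockdown. H2BC5 had a control peak of 10.9 that spanned several starts and was overlapped in both knockdown lists. Among immediate early genes, switched on within minutes of a stimulus, 9 of 13 were low-skew (69.2%, 42.4 to 87.3), an interval that includes the share over all genes. ATF3, a stress-induced factor, had folds of 7.80, 7.97 and 10.4, and DUSP1 6.43, 7.43 and 7.82. IER5, a stress-response regulator, had 6.16 in the control list and 13.6 in the DHX9 knockdown list and no peak in the U2AF1 knockdown list.

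Cytosolic ribosomal protein genes went the other way, with 14 of 61 low-skew (22.95%, 14.2 to 34.9). The 4 with low-skew peaks in all 3 lists were RPL10, RPL10A, RPLP1 and RPS27. RPL10A had folds of 10.3, 7.49 and 5.06, RPLP1 6.61, 6.44 and 11.7, and RPS27 4.96, 6.63 and 4.73. Mitochondrial ribosomal protein genes had 10 of 24 (41.7%). The shares of these families describe promoter sequence. They do not measure a response to either knockdown.

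Helicases and factors that act on R-loops mostly had G-rich promoters. Of the DEAD and DEAH box helicases, the family of DHX9, 2 of 13 were low-skew (15.4%, 4.33 to 42.2), DDX19A and DDX59. Of the R-loop factors 3 of 14 were (21.4%, 7.57 to 47.6): DDX19A, the topoisomerase TOP1 and the exonuclease XRN2, which had folds of 3.05 in the control and 5.56 in the U2AF1 knockdown list. Spliceosome proteins had 4 of 14 and SR and hnRNP proteins 6 of 16. Among the latter SRSF6, a splicing activator, had folds of 8.93, 7.41 and 9.61, and HNRNPA0 a control peak of 9.60. The HNRNPA0 summit lay 953 bp downstream of the start, and the peak was overlapped in both knockdown lists. RNA polymerase II subunits had 1 of 4, POLR2C, with 5.87, 5.88 and 4.48. General transcription factors and Mediator had 7 of 14, with TAF4, a TFIID subunit, at 11.9, 8.79 and 14.2. Except for the helicases, the intervals of these lists include the share over all genes.

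The intervals of the remaining lists also include the share over all genes. Glycolysis had 6 of 10, PKM, pyruvate kinase, among them with folds of 6.80, 8.16 and 8.66. Cyclins and CDKs had 8 of 14 (57.1%), with CDK16 at 4.07, 5.51 and 7.20. Actins and tubulins had 4 of 8, with TUBA1C at 9.86, 9.09 and 8.48. RAB GTPases and oxidative phosphorylation had 7 of 15 each (46.7%), with RAB22A at 6.91, 6.16 and 6.09.

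Aminoacyl-tRNA synthetases had 4 of 9 and zinc finger proteins 37 of 90 (41.1%, 31.5 to 51.4). ZKSCAN2 had folds of 6.66, 6.21 and 10.4. Ubiquitin conjugation had 7 of 18, heat shock chaperones 8 of 21, translation factors 9 of 24, mitochondrial carriers and import 5 of 16, proteasome subunits 3 of 10 and HOX genes 1 of 2. DNAJC10, a chaperone of the endoplasmic reticulum, had folds of 8.75, 4.99 and 5.01. EIF1, which guides start codon choice, had 3.78, 6.23 and 6.64, and PSMG3, a proteasome assembly factor, had 6.77, 7.28 and 10.7.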

How the data were processed

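POLR2A ChIP-seq was deposited as 1 narrowPeak list per condition; whether the replicates were pooled and how the input was used is not given in the sources used here. The control list names its peaks after replicate 1, so it may rest on 1 library or on both. Per the submitters' processing notes, Bowtie2 2.4.5, MACS2 2.2.7.1, deepTools 3.5.1 and hg38 were used. The fold enrichment is the authors' deposited ratio, and the significance of each peak was deposited by the authors as -log10 of its p-value and q-value. Library depth is not known from the lists, and it bears on the number of weak peaks called.

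Peaks were placed with GENCODE version 44 on GRCh38, chromosomes 1 to 22 and X; 89 control, 107 U2AF1 knockdown and 132 DHX9 knockdown peaks elsewhere were left out. Peaks with coding starts on both strands, 980 in all, belong to neither class. Scripts used Python 3.11.15, pandas 2.3.3 and pysam 0.24.0 and were tested on simulated data. No test was run: a condition is 1 list, and intervals cover counting error. Low-skew members, gene lists and the named genes were chosen with earlier results of these data known. The text names, per list, the 5 low-skew peaks of highest fold; per comparison with the control, the 5 highest without overlap in either direction; the 5 genes of lowest skew with peaks in all 3 lists, of which 1 is not reported here; the peaks nearest the threshold; and up to 4 genes per gene list, by control fold. Members of counts of 5 or fewer, and SMARCD3, were named after their values were seen, and C-rich members were set apart then too. Gene lists are patterns over gene symbols. Of the lowest-skew genes, sequence is printed where at least 100 bp without exon allowed it, and TGOLN2 is the next in order. The G-rich promoter of highest control fold starts at a small nuclear RNA gene, so MYLIP, the next without a small RNA start, was printed, a choice made after the data were seen.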

Additional observations from a re-analysis of the deposited data

How the results depend on the processing

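No paired analysis was possible because there is a single list for each condition, and for the same reason no replicate could be left out. The difference in overlap between low-skew and G-rich promoters stayed within its interval under all 84 alternatives run, and all 72 intervals computed included 0. It ranged from 0.0122 to 1.48 points for control peaks in the U2AF1 knockdown list and from -2.38 to 1.61 in the DHX9 knockdown list, from -5.43 to 3.09 and -2.73 to 3.12 for U2AF1 knockdown peaks in the control and DHX9 knockdown lists, and from -1.01 to 1.54 and -0.145 to 1.66 for DHX9 knockdown peaks in the control and U2AF1 knockdown lists.

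Other values moved as follows. With a skew threshold of 0, members numbered 507, 277 and 892. With the starts of all transcripts of protein-coding genes, the median summit distance was 25, 33 and 18 bp, and with canonical starts 52, 63 and 50.0 bp. With a -log10 q of at least 5, median fold was 4.75, 5.88 and 6.14 at low-skew and 4.68, 5.70 and 6.10 at G-rich promoters, 265 U2AF1 knockdown members were left, and overlap was 67.1% for control in DHX9 knockdown, 72.5% for U2AF1 knockdown in control and 21.9% for DHX9 knockdown in U2AF1 knockdown. With the 1730 top peaks of each list, the control had 528 members and the DHX9 knockdown 560, with median folds of 4.92 and 6.97 (G-rich 4.83 and 6.91) and a DHX9 knockdown summit distance of 36 bp. Control overlap was then 45.3% in the U2AF1 and 56.3% in the DHX9 knockdown list, U2AF1 knockdown overlap 54.1% in the control and 51.6% in the DHX9 knockdown list, and DHX9 knockdown overlap 53.4% in the control and 39.6% in the U2AF1 knockdown list. By construction fewer peaks were compared under both of these settings. With summits within 250 bp in place of overlap, 68.8% of control and 73.6% of U2AF1 knockdown members were matched in the DHX9 knockdown list, and 40.4% of DHX9 knockdown members in the control list.

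Of 276 alternative values, 241 stayed within their interval or within 1.5 times the count. Leaving out peaks beside small RNA starts, a setting chosen after seeing the data, moved none. With 1 list per condition of unknown depth, a difference between conditions cannot be told apart from one between libraries.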

Other observations

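Peaks beside small nuclear, nucleolar and Cajal body RNA genes made up a smaller share of low-skew than of G-rich peaks in each list, a difference that was not tested. A start of such a gene lay within 1000 bp of the summit at 5 of 816 low-skew control peaks (0.613%) and 16 of 997 G-rich ones (1.60%). It did so at 1 of 440 and 10 of 522 in the U2AF1 knockdown list, and at 7 of 1398 and 14 of 1733 in the DHX9 knockdown list. Among the 10 peaks of highest fold in each class, low-skew promoters had 0, 0 and 1 such peak under the control shRNA, U2AF1 knockdown and DHX9 knockdown, and G-rich promoters 4, 5 and 4.

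Skew belongs to a start and not to a gene. Of the 3622 genes, 83 had peaks in both classes. At RAB33B, a Golgi GTPase, the summits of the control and U2AF1 knockdown peaks were nearest to a start with a skew of -0.118, while the DHX9 knockdown summit was nearest to a start with a skew of 0.138. The bias between A and T also differed: (A-T)/(A+T) from the start to +500 bp had a median of -0.0897 at low-skew starts, -0.0469 at G-rich starts and -0.0471 at canonical starts.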
